A study of Mus musculus with 6 samples.

Results

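Described here are 41 genes of DNA replication and S phase, of 18193 genes on the array. They were chosen by name and not by a rule on their values, but with earlier results of these data known. They are read by 93 of the 34945 probe sets that name 1 gene. They were compared between the colon of mice lacking Hdac2 in the intestinal epithelium (HDAC2 KO) and the colon of control mice, with 3 arrays per group. Hdac2 encodes a class I histone deacetylase. The floxed gene was removed by Cre recombinase from the villin promoter, which acts in epithelial cells of the gut, so muscle, stroma and immune cells of the colon keep it. All animals were untreated, on a normal diet and of a mixed CD-1/129/C57BL/6 background. Their age, and whether the controls carried floxed alleles or Cre, are not given in the sources used here. The labels name epithelium from 1 numbered mouse per array, but also RNA from the colon, and the description of the knockout samples names HDAC1/2 where their titles and genotypes name HDAC2. The knockout animals are called HDAC2 KO after the latter.

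Before a cell copies its DNA, the origin recognition complex, Cdc6 and Cdt1 load the Mcm2 to Mcm7 helicase ring onto origins, a step called licensing. Cyclin E with its kinase, and the kinase Cdc7, then recruit Cdc45 and the GINS complex, which turn the ring into an active helicase. Primase and DNA polymerase alpha start each strand, the clamp loader RFC places the PCNA clamp, polymerases delta and epsilon extend, and Fen1 and Lig1 join the fragments of the lagging strand, while ribonucleotide reductase, thymidylate synthase and thymidine kinase supply nucleotides. Many of these genes are transcribed by E2F factors as cells leave G1. In the colon, the cells that replicate are mainly those in the lower crypt, and lymphocytes of the lymphoid follicles also divide.

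Of the 41 genes, 39 passed the signal filter (a mean over the 6 arrays of at least 6.66 on the log2 scale), and 22 of these rose in HDAC2 KO, 0 fell and 17 were not called (limma, Benjamini-Hochberg adjusted p under 0.05 over 10916 genes). Among all genes tested, 9.68% were called higher and 8.2% lower. The rises were small, from 1.10-fold for Rrm1 to 1.31-fold for Gins1, with a median of 1.17-fold. Gins1 passed the filter only through its HDAC2 KO arrays, where it is high; without it 21 of 38 genes rose, by up to 1.23-fold, with the same median. The difference (HDAC2 KO minus control, log2) was positive for 38 of the 39 genes, as it was for 51.4% of all genes tested. The median difference of the 39 genes was 0.145, against 0.00315 over all genes tested. On all 3 HDAC2 KO arrays 25 of the 39 genes read above all 3 control arrays, as did 19.9% of all genes tested, while 0 read below them, as did 17.7%. The count of 22 depended on single arrays. It was 13 without control replicate 1, a fit that called 5.72% of all genes higher. It was 14 without control replicate 3 (5.89% of all genes) and 14 without HDAC2 KO replicate 1 (5.79%). It was 9 when each probe set on the array was tested separately, a fit that called 2.2% of 34945 probe sets higher and 2.54% lower, and 3.91% of the 10916 genes higher at their brightest probe set.

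**Figure D1:**
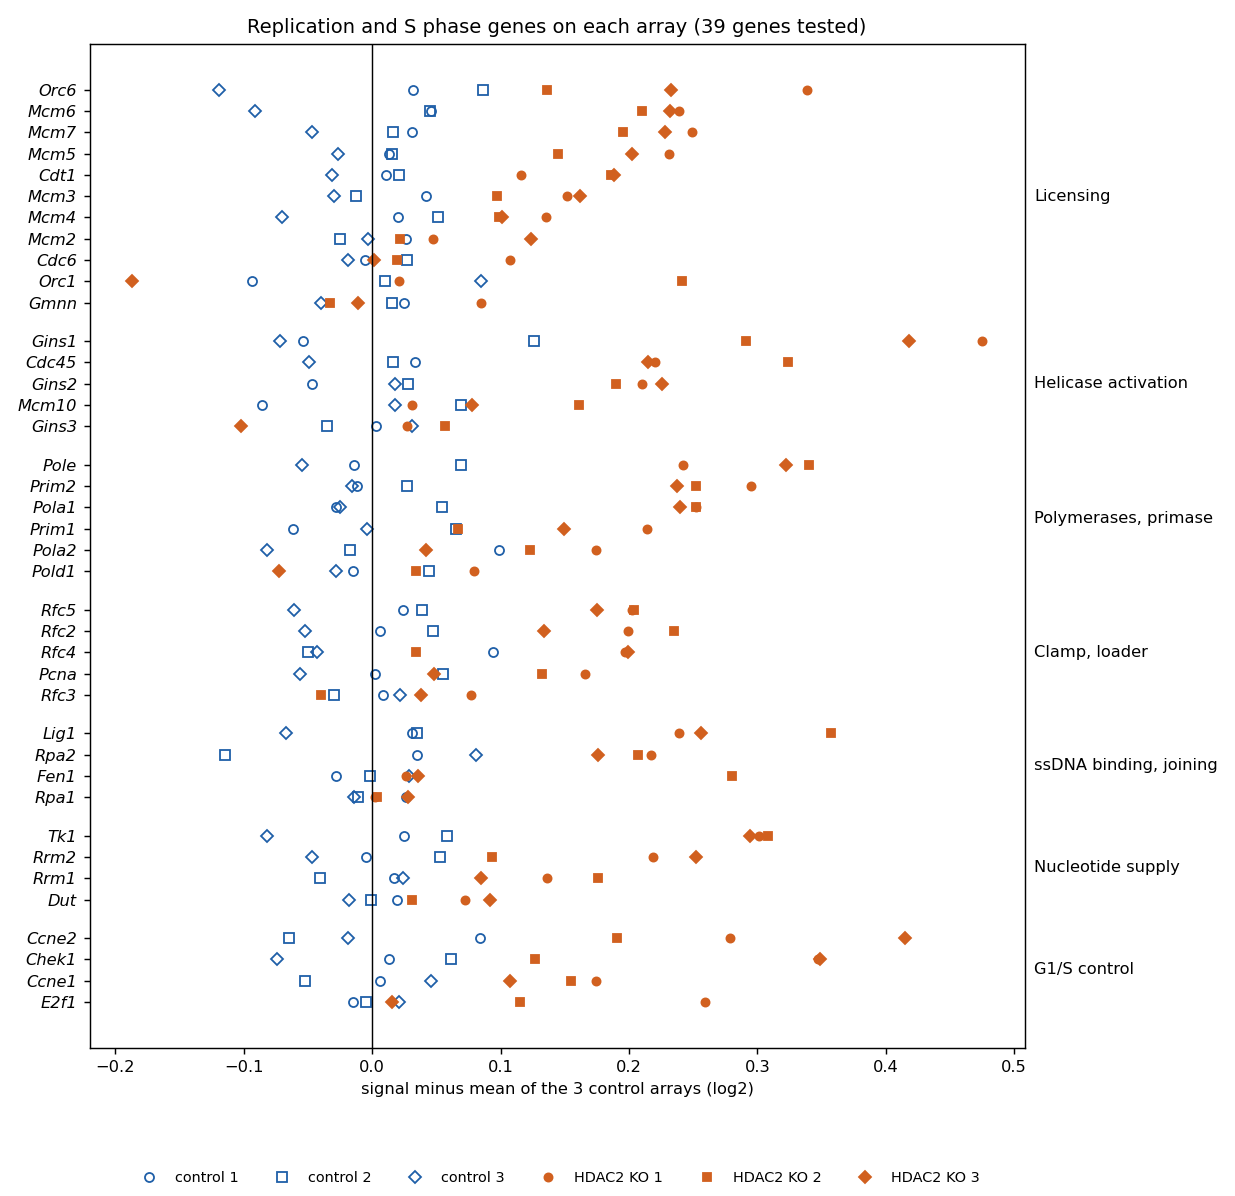
Signal of the 39 genes tested on each array, minus the mean of the 3 control arrays (horizontal axis, log2), with genes grouped by role (vertical axis). Open blue marks are control arrays and filled orange marks HDAC2 KO arrays; for 25 genes the orange marks all lie to the right of the blue ones.

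The targeted gene was lower in the knockout arrays. Its brightest probe set read 10.40, 10.37 and 10.43 in control and 10.21, 10.12 and 10.24 in HDAC2 KO, a difference of -0.21 (SE 0.040, adjusted p = 0.00893). Where this probe set lies with respect to the floxed exons was not examined here. The call was lost when each probe set was tested separately (0.0595) and without the probe sets that may bind more than 1 transcript (0.0884), where the difference was -0.22. Hdac1, its close relative, which is also named in 1 label of these samples, was 1.11-fold higher (limma adjusted p = 0.0321), at 10.31 ± 0.032 in the controls against 10.47 ± 0.053 in the knockout (SD, n = 3), a call lost with each array left out in turn except HDAC2 KO replicate 2 (0.0673 to 0.109). Xist, expressed from the inactive X chromosome, and Kdm5d, a Y-linked gene, were both read on all 6 arrays: Xist at 11.99 to 12.035 in control and 11.52 to 11.56 in HDAC2 KO, Kdm5d at 6.90 to 7.02 and 7.36 to 7.84. Whether an array held 1 mouse or a pool was therefore not settled, p-values measure the spread between these arrays, and the part of the sex-linked difference in the results was not tested. The arrays had medians of 6.17 to 6.21, and HDAC2 KO replicate 2 deviated most from the mean of its group (root mean square 0.0799).

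Promoter sequence is shown for 5 of these genes. All 5 hold E2F-type letters, which most of the genes searched did not, so they do not stand for the whole list. The choice of the 41 genes did not use promoter letters. RefSeq promoter windows (GRCm38.p6, 250 bases before to 50 after the start site) were at hand for 33 of the 41 genes. The motif was searched on both strands as TTTCGCGC, TTTGGCGC, TTTCCCGC and TTTGCCGC, and matches on opposite strands may overlap. It was found for 12 of the 33 genes (36.4%), against 2.6% of 27025 genes with such a window. Among called genes 7 of 16 held it, among genes tested but not called 5 of 15 and among the genes below the signal filter 0 of 2, so the letters were present on both sides of the call. The CCAAT box, searched on both strands, was found for 18 of the 33 genes (54.5%) and for 41.1% of all genes. Of the wider list of genes described further on, which includes Cdk inhibitors, 20 of 74 held the E2F-type letters (27.0%). A match describes the letters only. The 170 bases before the start site are given 5′ to 3′ on the strand of the gene, with E2F-type letters in capitals. Mcm6 (chr1:128359706-128359875, minus strand), Mcm5 (chr8:75109339-75109508, plus strand) and Pola1 (chrX:93632156-93632325, minus strand) rose in HDAC2 KO. Orc1 (chr4:108579284-108579453, plus strand) and Cdc6 (chr11:98907981-98908150, plus strand) were not called.
Mcm6: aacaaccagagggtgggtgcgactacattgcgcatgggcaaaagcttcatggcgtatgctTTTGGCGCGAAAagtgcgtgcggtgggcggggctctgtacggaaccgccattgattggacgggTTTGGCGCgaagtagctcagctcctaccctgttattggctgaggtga
Mcm5: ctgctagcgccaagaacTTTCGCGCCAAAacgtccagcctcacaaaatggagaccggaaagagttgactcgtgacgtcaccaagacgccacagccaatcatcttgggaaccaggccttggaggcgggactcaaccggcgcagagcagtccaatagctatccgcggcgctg
Pola1: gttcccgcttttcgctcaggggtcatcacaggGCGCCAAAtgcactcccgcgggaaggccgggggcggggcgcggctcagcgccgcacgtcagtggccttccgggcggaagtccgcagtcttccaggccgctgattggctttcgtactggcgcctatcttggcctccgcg
Orc1: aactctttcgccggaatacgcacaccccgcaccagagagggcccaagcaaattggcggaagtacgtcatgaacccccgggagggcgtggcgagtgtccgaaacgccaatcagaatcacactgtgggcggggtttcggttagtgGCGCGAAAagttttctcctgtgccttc
Cdc6: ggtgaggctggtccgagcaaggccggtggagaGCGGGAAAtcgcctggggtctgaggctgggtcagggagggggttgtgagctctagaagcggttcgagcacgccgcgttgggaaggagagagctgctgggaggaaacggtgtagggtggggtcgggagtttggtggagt

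Among 11 licensing genes 6 rose, 0 fell and 5 were not called. The calls lay in the Mcm ring, the loading factor Cdt1 and the origin recognition subunit Orc6. Mcm7, a subunit of the helicase ring, read 10.84, 10.83 and 10.76 in the controls and 11.06, 11.01 and 11.04 in HDAC2 KO. The groups did not overlap, and the difference was 0.22 (SE 0.036, adjusted p = 0.00441), or 1.17-fold. Mcm5, which sits beside Mcm2 at the gate through which DNA enters the ring, read 9.55, 9.55 and 9.51 in control and 9.765, 9.68 and 9.74 in HDAC2 KO. It was 1.14-fold higher without overlap (0.19, SE 0.036, adjusted p = 0.00863). Mcm6, whose promoter above holds 3 E2F-type matches, read 9.925, 9.92 and 9.79 in control and 10.12, 10.09 and 10.11 in HDAC2 KO. The control spread came mostly from replicate 3, the lowest array, and the difference was 0.23 (SE 0.044, adjusted p = 0.0101).

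Mcm3 was 1.10-fold higher (0.14, SE 0.036), Cdt1 1.12-fold (0.16, SE 0.036) and Orc6 1.18-fold (0.24, SE 0.067). Mcm4 differed by 0.11 (95% confidence interval 0.0187 to 0.204, adjusted p = 0.0967) and Mcm2 by 0.065 (-0.024 to 0.153), so the 6 ring subunits had differences of 1 sign but 4 of them were called. Geminin (Gmnn), the inhibitor of Cdt1, read 9.42 ± 0.035 (SD, n = 3) in the controls and 9.44 ± 0.063 (SD, n = 3) in HDAC2 KO. The interval of its difference ran from -0.083 to 0.11, with a limma adjusted p of 0.865. The interval was -0.048 to 0.13 for Cdc6 and -0.20 to 0.25 for Orc1, the widest among the 39 genes being that of Orc1, whose HDAC2 KO arrays read 7.03, 7.25 and 6.82. The calls of Mcm7, Mcm5 and Mcm6 were kept without any 1 array, but that of Mcm7 was lost without the probe sets that may bind more than 1 transcript (adjusted p = 0.0848), and those of Mcm5 (0.0642) and Mcm6 (0.0599) when each probe set was tested separately. The call of Cdt1 was lost without HDAC2 KO replicate 3 (0.0525), control replicate 1 (0.0636) or control replicate 3 (0.0594), and its difference was 0.054 with a gene's probe sets averaged (0.348), 1 of which lay far below the filter level at a mean signal of 3.19 and differed by -0.165. The calls of Mcm3 (0.0628 to 0.116) and Orc6 (0.0528 to 0.138) were lost on leaving out each array in turn except HDAC2 KO replicate 2, and that of Orc6 also with the replicate number as a block (0.0613).

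Of 6 genes that turn the loaded ring into a working helicase, 3 rose, 2 were not called and Cdc7 lay below the filter. Gins1, a subunit of the GINS complex, had the largest difference of the 39 genes. It read 6.58, 6.76 and 6.57 in control and 7.11, 6.93 and 7.06 in HDAC2 KO. All HDAC2 KO arrays lay above all controls, and the difference was 0.39 (SE 0.066, adjusted p = 0.00514). The control mean of 6.64 lay below the filter level. Gins2, its partner in the complex, read 7.72, 7.79 and 7.78 in control and 7.975, 7.955 and 7.99 in HDAC2 KO, 1.16-fold higher (0.21, SE 0.035, adjusted p = 0.00514). Cdc45, the third component of the active helicase, read 7.58, 7.56 and 7.495 in control and 7.76, 7.87 and 7.76 in HDAC2 KO, 1.19-fold higher (0.25, SE 0.043, adjusted p = 0.00543). The groups of both were apart, and all 3 calls held without any 1 array. With a gene's probe sets averaged, Cdc45 differed by 0.127 (adjusted p = 0.0311), its second probe set, below the filter level, differing by 0.00054, and Gins1 was not tested.

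A further GINS gene, Gins3, read 6.86 ± 0.033 and 6.86 ± 0.085 (SD, n = 3) and was the 1 gene of the 39 with a negative difference, -0.0058 (limma adjusted p = 0.952; interval -0.116 to 0.104). Mcm10, which helps activate the helicase, differed by 0.090 (interval -0.029 to 0.209). Cdc7, the kinase that phosphorylates the Mcm ring, has 2 probe sets under the filter level. The brighter read 6.43, 6.44 and 6.31 in control and 6.50, 6.52 and 6.53 in HDAC2 KO, the other 6.22, 6.16 and 5.98 and then 6.52, 6.32 and 6.435. Neither was called in the separate test of each probe set (adjusted p = 0.258 and 0.084), although both groups were apart. With a gene's probe sets averaged, Cdc7 passed the filter of that fit and was called higher.

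Of the 6 polymerase and primase genes, 3 rose and 3 were not called. Prim2, the large primase subunit, read 7.62, 7.66 and 7.61 in control and 7.92, 7.88 and 7.87 in HDAC2 KO. It had the smallest p of the 39 genes and was 1.20-fold higher (0.26, SE 0.034, adjusted p = 0.00139). Pola1, the catalytic subunit of polymerase alpha, read 8.23, 8.31 and 8.235 in control and 8.51, 8.51 and 8.50 in HDAC2 KO. Its 3 HDAC2 KO arrays had an SD of 0.0068, and it was 1.19-fold higher (0.25, SE 0.036, adjusted p = 0.00236). Pole, the catalytic subunit of the leading-strand polymerase epsilon, read 6.87, 6.95 and 6.825 in control and 7.12, 7.22 and 7.20 in HDAC2 KO, 1.23-fold higher (0.30, SE 0.045, adjusted p = 0.00286). For all 3 the groups did not overlap.

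The other 3 genes of this role were not called. Prim1, the catalytic primase subunit, differed by 0.14 (interval 0.029 to 0.259, adjusted p = 0.0857) and Pola2, the second subunit of polymerase alpha, by 0.11 (-0.0137 to 0.24). The lagging-strand polymerase gene Pold1 read 8.16 ± 0.039 and 8.17 ± 0.078 (SD, n = 3), with an interval from -0.094 to 0.12. Prim1 was called without HDAC2 KO replicate 2 (adjusted p = 0.0315). With a gene's probe sets averaged, Prim2 differed by 0.143 and its call was lost (0.153), and that of Prim1 was gained (0.00313).

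In the clamp and clamp loader group 2 of 5 genes rose. Rfc5, a small clamp loader subunit, read 8.42, 8.44 and 8.34 in control and 8.60, 8.60 and 8.57 in HDAC2 KO. It was 1.14-fold higher (0.19, SE 0.038, adjusted p = 0.0104). Rfc2, another small subunit, read 9.30, 9.34 and 9.24 in control and 9.49, 9.53 and 9.43 in HDAC2 KO, and was also 1.14-fold higher (0.19, SE 0.042, adjusted p = 0.0175). Both groups were apart. Pcna, the sliding clamp and a common marker of dividing cells, read 12.05, 12.105 and 11.99 in control and 12.22, 12.18 and 12.10 in HDAC2 KO. Its groups overlapped at the lowest HDAC2 KO array, and it was not called (0.115, interval 0.0112 to 0.219, adjusted p = 0.121), though it was called with array weights (0.022) and with an intensity trend (0.0409). Rfc4 differed by 0.14 (0.0066 to 0.279) and Rfc3 by 0.025 (-0.067 to 0.118), and neither was called. The Rfc2 call was lost without HDAC2 KO replicate 1 (0.0632), control replicate 1 (0.0643) or control replicate 3 (0.0599), that of Rfc5 when each probe set was tested separately (0.0705), and Rfc4 was called without HDAC2 KO replicate 2 (0.0304).

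**Figure D2:**
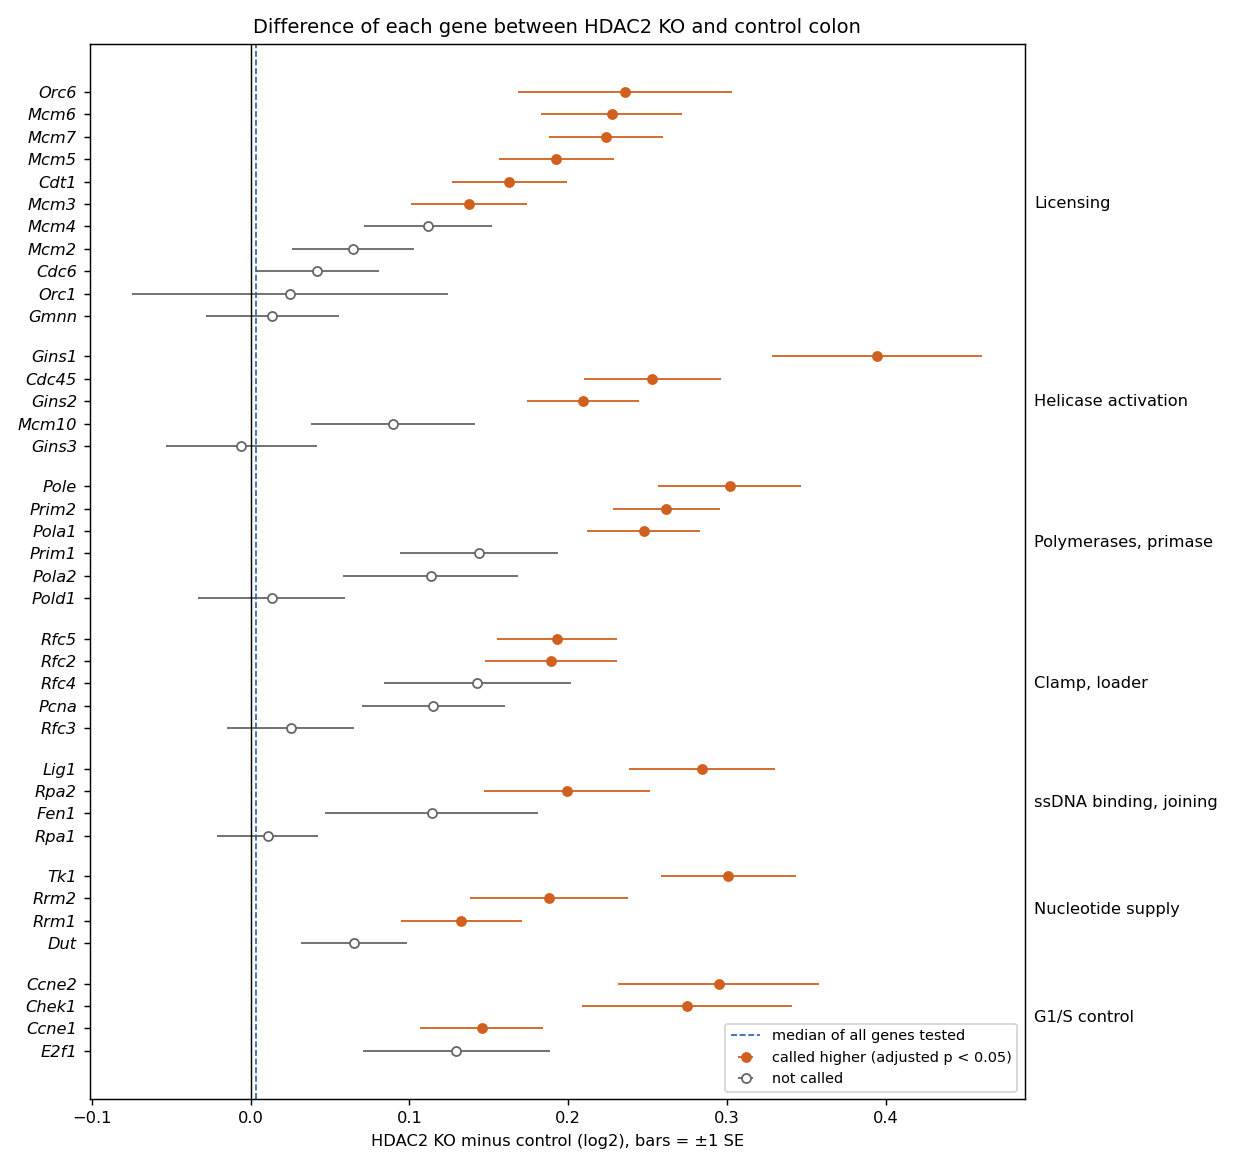
Difference between HDAC2 KO and control for each of the 39 genes tested (horizontal axis, log2; bars are 1 SE on each side), grouped by role. Filled marks are the 22 genes called higher, open marks the 17 not called, and the dashed line is the median of all genes tested, 0.00315.

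In the group of single-strand binding and fragment joining, Lig1 and Rpa2 rose while Fen1 and Rpa1 were not called. Lig1, the ligase that seals lagging-strand fragments, read 9.31, 9.31 and 9.21 in control and 9.52, 9.635 and 9.53 in HDAC2 KO. It was 1.22-fold higher without overlap (0.28, SE 0.046, adjusted p = 0.00453). Rpa2, a subunit of the single-strand binding complex, read 8.01, 7.86 and 8.06 in control and 8.195, 8.185 and 8.15 in HDAC2 KO, 1.15-fold higher (0.20, SE 0.052, adjusted p = 0.0347). Fen1, the nuclease that trims fragment ends, read 10.33, 10.36 and 10.39 in control and 10.39, 10.64 and 10.40 in HDAC2 KO. HDAC2 KO replicate 2 stood clear of the other 5 arrays, the groups overlapped, and the difference was 0.11 (interval -0.040 to 0.268, adjusted p = 0.294). Rpa1, the largest subunit of the same complex as Rpa2, read 10.62 ± 0.022 and 10.63 ± 0.015 (SD, n = 3), with an interval of the difference from -0.063 to 0.084. The Rpa2 call was lost on leaving out each array in turn except control replicate 3 (adjusted p 0.0537 to 0.104).

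Among genes of nucleotide supply 3 of 4 tested rose. Tk1, the thymidine kinase made in S phase, read 8.405, 8.44 and 8.30 in control and 8.68, 8.69 and 8.67 in HDAC2 KO. Its difference was 0.30 (SE 0.043, adjusted p = 0.00221), or 1.23-fold, and the call held without any 1 array. Rrm2, the S phase subunit of ribonucleotide reductase, read 8.70, 8.76 and 8.66 in control and 8.93, 8.80 and 8.96 in HDAC2 KO, 1.14-fold higher (0.19, SE 0.050, adjusted p = 0.0362). Rrm1, its catalytic partner, read 9.67, 9.61 and 9.67 in control and 9.785, 9.825 and 9.73 in HDAC2 KO, 1.10-fold higher (0.13, SE 0.038, adjusted p = 0.0477). The groups of all 3 were apart. Dut, which removes dUTP, also had its groups apart but was not called (0.065, interval -0.0117 to 0.142). The 4 probe sets of the thymidylate synthase gene Tyms lay under the filter level, and the brightest read 5.50, 5.62 and 5.39 in control and 5.51, 5.47 and 5.53 in HDAC2 KO. The reductase calls were lost without most single arrays, that of Rrm2 with each left out in turn except HDAC2 KO replicate 2 (0.0546 to 0.116) and that of Rrm1 with each except HDAC2 KO replicate 3 (0.0809 to 0.156), and both when replicate number entered the fit as a block (0.0734 and 0.0803). With a gene's probe sets averaged, 1 of them at a mean signal of 3.06, the difference of Rrm1 was 0.059 (0.352).

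Of 4 genes of S phase entry and checkpoint 3 rose. Ccne2, which encodes cyclin E2, read 7.27, 7.12 and 7.17 in control and 7.47, 7.38 and 7.60 in HDAC2 KO. It was 1.23-fold higher (0.29, SE 0.063, adjusted p = 0.0155). Ccne1, which encodes cyclin E1, read 7.475, 7.42 and 7.515 in control and 7.64, 7.62 and 7.58 in HDAC2 KO, 1.11-fold higher (0.15, SE 0.039, adjusted p = 0.0368). Chek1, the kinase that halts the cycle at stalled forks, read 7.16, 7.21 and 7.07 in control and 7.49, 7.27 and 7.50 in HDAC2 KO, 1.21-fold higher (0.27, SE 0.066, adjusted p = 0.0252). The groups of all 3 were apart. E2f1, an activating E2F factor, read 7.29, 7.30 and 7.32 in control and 7.56, 7.42 and 7.32 in HDAC2 KO. Its groups overlapped at HDAC2 KO replicate 3, and it was not called (0.13, interval -0.0061 to 0.265, adjusted p = 0.177). Without HDAC2 KO replicate 3, its lowest knockout array, the adjusted p of E2f1 was 0.0458. The Ccne2 call was lost without control replicate 2 (0.0609) or 3 (0.0628), and when each probe set was tested separately (0.0675). That of Ccne1 was lost without HDAC2 KO replicate 1 (0.124) or 2 (0.0586) or control replicate 1 (0.108) or 2 (0.124), and with the replicate number as a block (0.0622), while its difference was 0.22 at another probe set, used when those that may bind more than 1 transcript were left out. That of Chek1 was lost without HDAC2 KO replicate 1 (0.0867) or 3 (0.0614) or control replicate 1 (0.0744) or 3 (0.0935), and with the block (0.0542). The Chek1 probe set used may bind more than 1 transcript. Its other probe sets lay below the filter level and differed by 0.13, 0.11, -0.040 and -0.030. Chek1 was not tested with probe sets averaged or without those that may bind more than 1 transcript.

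Relative to the control mean of each gene, their median was 0.013, 0.021 and -0.028 in the 3 controls and 0.198, 0.155 and 0.162 in the 3 knockouts. The same medians over all genes tested were 0.011, 0.012 and -0.023 in the controls and 0.013, -0.0081 and 0.0068 in the knockouts, so the order of the control arrays was that of all genes. Control replicate 3 held the lowest control value for 24 of the 39 genes, as it did for 57.4% of all genes tested. HDAC2 KO replicate 1 read above the control mean for 39 of the 39 genes, replicate 2 for 37 and replicate 3 for 35.

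A further probe set above the filter level was present for 20 of the genes, 24 probe sets in all. Whether they read a different place in the transcript was not examined here. All 24 had a positive difference, and 16 had their groups apart. Their median difference was 0.145, as was that of the brightest probe sets of these genes. Including the brightest ones, 41 of 63 probe sets of the replication genes above the filter level had HDAC2 KO arrays above all controls (65.1%), against 18.2% of all such probe sets, and 62 of 63 had a positive difference, against 50.5%. Probe sets of 1 gene share its transcript and are not independent.

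Agreement in size between probe sets varied by gene. The second Prim1 probe set read 8.09, 7.98 and 7.98 in control and 8.29, 8.33 and 8.30 in HDAC2 KO, a difference of 0.29 against 0.14 for the brighter one. A dimmer Mcm3 probe set differed by 0.27 (adjusted p = 0.0279, each probe set tested separately) against 0.14 for the brightest. The second Gins2 probe set differed by 0.28 (adjusted p = 0.0373). Other further probe sets differed by less than the brightest. That of Prim2 differed by 0.17 against 0.26, with overlapping groups (adjusted p = 0.306, each probe set tested separately). The dimmest Mcm7 probe set differed by 0.11 against 0.22. Of 2 further Rrm2 probe sets, 1 differed by 0.0685 and the other by 0.28, against 0.19. Both Rpa1 probe sets differed by 0.011 and 0.010, and both Pold1 probe sets by 0.013 and 0.0073, so the small differences of these genes were read at each of their probe sets. Probe sets of opposite sign above the filter level were found for 0 genes.

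**Figure D3:**
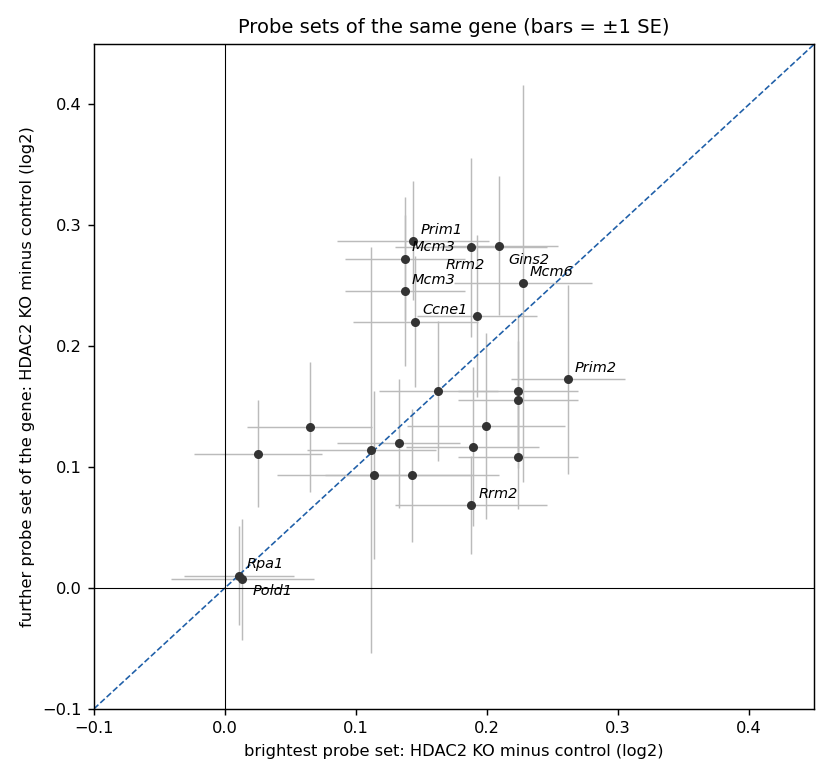
Difference between HDAC2 KO and control at 24 further probe sets (vertical axis, log2) against the brightest probe set of the same gene (horizontal axis, log2) for 20 genes; bars are 1 SE on each side and the dashed line marks equal values. All points lie above 0 on both axes, and Rpa1 and Pold1 lie near 0 on both.

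A wider list of 92 other genes of replication, nucleotide supply, chromatin assembly, G1 to S control and Cdk inhibition was read in the same way. Of 81 tested, 19 rose, 1 fell and 61 were not called (9.68% higher and 8.2% lower over all genes), with a median difference of 0.058. By role, 7 of 17 further polymerase, clamp loader and fork genes rose, 3 of 9 chromatin assembly genes and 6 of 24 G1 to S control genes. In the remaining roles 1 of 13 further licensing genes, 1 of 12 further nucleotide genes and 1 of 6 Cdk inhibitor genes (Cdkn1a) rose. Dscc1, a clamp loader gene named after its values were seen, passed the filter only through its HDAC2 KO arrays (means of 6.50 and 6.905), and without it 6 of 16 genes of the first role and 18 of 80 of the list rose. Whether these shares differ was not tested.

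E2f8, a repressive E2F factor of late S phase, read 8.30, 8.33 and 8.40 in control and 8.73, 8.77 and 8.87 in HDAC2 KO, a difference of 0.44 (SE 0.047, adjusted p = 0.000564), or 1.36-fold. With a gene's probe sets averaged it was 0.212 (adjusted p = 0.0194). Its partner E2f7 was 1.26-fold higher (0.33, SE 0.043). Rnaseh2b, a subunit of the enzyme that removes ribonucleotides from DNA, rose 1.20-fold and Clspn, the adaptor that activates Chek1, 1.23-fold. The fork protein gene Wdhd1 rose 1.17-fold, a call lost when each probe set was tested separately (0.0593), and that of Clspn was lost on averaging probe sets, at a difference of 0.142 (0.0951). The maintenance methylation factors Uhrf1 and Hells rose 1.24-fold and 1.27-fold. Cdkn1a, which encodes the Cdk inhibitor p21, read 11.58, 11.61 and 11.54 in control and 11.895, 11.92 and 11.89 in HDAC2 KO and was 1.25-fold higher (0.33, SE 0.034, adjusted p = 0.000521).

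Shmt1, a folate enzyme, rose 1.10-fold (0.079 with probe sets averaged, adjusted p = 0.175), a call lost with each array left out in turn except HDAC2 KO replicate 2 (adjusted p 0.077 to 0.116) and with the replicate number as a block (0.0533). Mcm8 differed by 0.11 and was called only without control replicate 3 (0.0363) among the fits that left out an array. Nme1 differed by 0.12 and Cdkn1b by 0.16. Leaving out HDAC2 KO replicate 2 led to a call of both (0.0195 and 0.00848), and the block to a call of Cdkn1b (0.0433). The 1 gene that fell, named after its values were seen, was Cdk2, the kinase partner of cyclin E. It read 8.60, 8.46 and 8.54 in control and 8.37, 8.21 and 8.39 in HDAC2 KO (-0.21, SE 0.058, adjusted p = 0.0427). Its call was lost without HDAC2 KO replicate 1 (0.0721) or 2 (0.0599) or control replicate 1 (0.149) or 3 (0.119), with no signal filter (0.106), with median centring (0.067) and when each probe set was tested separately (0.145).

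Markers of other stages and cell types were read in the same way. In some lists most genes tested were called, and in others most were not. Over all genes tested, 9.68% were called higher and 8.2% lower. In bulk RNA, fewer cells of a type and less RNA per cell cannot be told apart. Of 18 mitosis genes tested 11 rose and 0 fell, with a median of 0.169, and Nusap1, a spindle protein gene, rose 1.20-fold. Of 9 crypt stem cell genes tested 0 rose and 3 fell, with a median of -0.118, and Ascl2, a stem cell transcription factor, was 1.24-fold lower (-0.315, SE 0.0435). Summed on the linear scale over each list, the stem cell genes read 3669 to 3757 in control and 3325 to 3469 in HDAC2 KO, while the 41 replication genes read 21859 to 22703 and 24408 to 24975. Gut epithelial genes rose in 1 of 10 cases (Cdx2, 1.15-fold), near the 9.68% of all genes called higher. Their summed signals were 108562 to 109277 in control and 110510 to 112729 in HDAC2 KO.

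Lymphocyte markers were lower in HDAC2 KO. Among all genes tested 8.2% were called lower. All 7 B cell genes tested fell, among them Ms4a1 (CD20), 1.60-fold lower, and the list summed to 2416 to 2507 in control and 1632 to 1705 in HDAC2 KO, with Pax5 and Blk below the filter level. Cd79a passed the filter only through its control arrays, and without it 6 of 6 fell. Of 5 germinal centre B cell genes tested Basp1 fell (-0.16, SE 0.035) and 4 were not called; the list summed to 1219 to 1234 and 1074 to 1178, with Gcsam and Mybl1 below the filter level. The Basp1 call was lost without HDAC2 KO replicate 1 (adjusted p = 0.0564), control replicate 1 (0.0764) or control replicate 2 (0.0564). Of 4 T cell genes tested 3 fell, and 5 others of that list, Cd3g, Cd8a, Cd8b1, Cd2 and Cd5, lay below the filter level; the list summed to 1299 to 1382 and 810 to 890. General leukocyte genes fell in 5 of 5 cases tested, and the list summed to 4989 to 5159 in control and 2805 to 2995 in HDAC2 KO. Differentiated colonocyte genes rose in 7 of 10 cases and smooth muscle genes in 3 of 8, against 9.68% of all genes. Their median differences were 0.212 and 0.090. The colonocyte list summed to 60606 to 61292 in control and 72640 to 74734 in HDAC2 KO. The smooth muscle list summed to 44281 to 45072 in control and 48477 to 49370 in HDAC2 KO. All 4 adipocyte genes tested fell, or 3 of 3 without Lipe, which passed the filter only through its control arrays. The adipocyte list summed to 4451 to 4711 in control and 1035 to 1093 in HDAC2 KO. Of 6 fibroblast genes tested 0 rose, 1 fell and 5 were not called, with a median of 0.0268. The fibroblast list summed to 11115 to 11537 in control and 10864 to 11211 in HDAC2 KO. The part of these cell types in the replication gene differences was not tested.

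**Figure D4:**
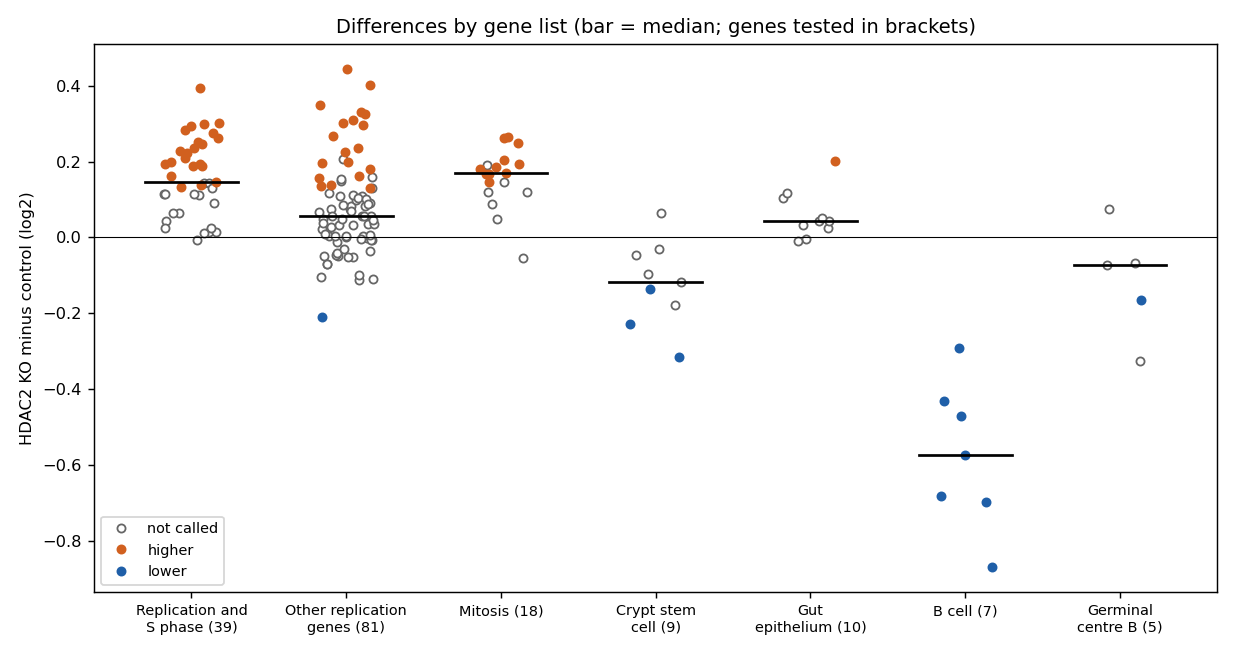
Differences between HDAC2 KO and control (vertical axis, log2) for the genes tested in 7 lists; each point is 1 gene, filled where called, and bars are list medians. The replication list has a median of 0.145 and the mitosis list 0.169, while the crypt stem cell and B cell lists have medians of -0.118 and -0.574. Not drawn are the differentiated colonocyte list, with a median of 0.212, and the smooth muscle, T cell, leukocyte, fibroblast and adipocyte lists.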

How the data were processed

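Total RNA of 3 control and 3 HDAC2 KO colon samples was hybridised as biotin-labelled cRNA to 1-colour arrays. The deposited values were made by the authors with RMA, per the submitters' processing notes, and lie between 2.39 and 14.6, so they were taken as log2. RMA quantile-normalizes the arrays, which hides a change in total RNA, and compresses differences at low signal. Scanner files and scan dates were not used here. Of 45101 probe sets, 64 array controls were left out, 34945 had 1 gene symbol in a platform annotation, 932 several and 9160 none. The brightest probe set stood for each of 18193 genes, and genes at or above the 40th percentile of gene means were tested with limma 3.58.1 in R 4.3.3 (group as the sole term), at a Benjamini-Hochberg adjusted p under 0.05. Simulated data with known changes, and noise independent between arrays, were used to check the fit. The check set no requirement on the recovery of differences as small as most of those called here. The genes, lists and tests were chosen with earlier results of these data known. The 3 genes of smallest p per role were to be described with values on every array. Of the wider list, the 2 of smallest p per role were to be named, with array values shown for E2f8, Cdkn1a and Cdk2 alone.

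Deviations from the group means correlated between same-numbered arrays of both groups (r = 0.21, 0.34 and 0.20, against -0.37 to 0.18 otherwise), so the replicate number was used as a block in an alternative fit. This pairing comes from the values and not from a label. With 3 arrays per group, the number of arrays limits the precision.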

Additional observations from a re-analysis of the deposited data

How the results depend on the processing

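In 16 alternative fits, the number of replication genes called higher, 22 with group alone, was 12 at a 60th-percentile filter (21 tested), 13 with no signal filter and 9 with each probe set tested separately; leaving out 1 array gave 13 to 21. With the replicate number as a block it was 17, and among the 39 genes, Hdac1, Hdac2, Cdk2 and the genes chosen by smallest p, the block changed no call other than those of Orc6, Rrm1, Rrm2, Ccne1, Chek1, Shmt1 and Cdkn1b. Array weights added E2f1, Mcm4, Pcna, Prim1 and Rfc4. In each fit 0 were called lower. Over all genes tested, 11.1% were called higher at the 60th-percentile filter and 3.88% with no signal filter. The share was 3.91% with each probe set tested separately, 17.2% with array weights and 5.72% to 11.2% without 1 array. Cdc45, Gins1, Gins2, Lig1, Pola1, Pole and Tk1 were called in every alternative in which they were tested, and the other 15 were lost in at least 1. The median difference, 0.145, was 0.142 to 0.168 without 1 array and 0.181 with array weights. Of the wider list, 19 genes were called higher, 30 with array weights, 12 at the 60th percentile, 11 with no filter, 9 with each probe set tested separately and 13 to 24 without 1 array. Called lower were 1, and 3 with array weights, 2 at the 60th percentile, 2 with an intensity trend, 2 with averaged probe sets, 0 with median centring, 0 with no filter, 0 with each probe set tested separately and 0 to 1 without 1 array. Of all genes 1952 were called, 3506 with array weights, 840 with each probe set tested separately and 1130 to 2107 without 1 array. Signs turned only for genes that were not called. Gins3 was 0.00939 with array weights, 0.000225 after quantile normalization and -0.0373 to 0.0424 without 1 array, and Rpa1 was -0.00495 with array weights. Without 1 array Gmnn lay between -0.0222 and 0.0369, Pold1 between -0.0196 and 0.0561, Rfc3 between -0.000872 and 0.0577 and Orc1 between -0.0832 and 0.131. Fewer genes were tested at the higher filter and fewer arrays when 1 was left out; the cause of the other changes was not tested.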

Other observations

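Of the 93 probe sets, 30 lay below the filter level. Their median difference was 0.051 and 22 were positive. They entered the separate test of each probe set and the averages over a gene's probe sets, and the brightest ones of Cdc7 and Tyms entered the fit with no filter. The separate test called 12 probe sets of 11 replication genes higher and 0 lower. Among them were probe sets of Mcm3 and Prim1 that were not the brightest of their gene.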
